A study of Mus musculus with 20 samples.

Results

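The Notch receptors, their ligands, their nuclear partners and their classical targets were examined in mouse skin tissues on the way from normal skin (NS) to actinic keratosis (AK) and cutaneous squamous cell carcinoma (cSCC). The genes were picked by symbol and not by their values, and they were 10 of the 22090 genes in the count table. They comprised the receptors Notch1, Notch2 and Notch3, the ligands Jag1, Jag2 and Dll1, the nuclear factors Rbpj and Maml1, and the targets Hes1 and Hey1. RNA-seq was done on 8 NS, 8 AK and 4 cSCC tissues, called here by the numbers in their labels, such as cSCC 18. Their source was 8 SKH-1 mice, a hairless strain, all female and 7 months of age when they were divided, of which 4 were kept without ultraviolet exposure and 4 were irradiated repeatedly, and the tissues were taken at the end of that course. By the study's design an unexposed mouse gave 1 piece of NS, and an irradiated mouse gave 1 piece of NS, 2 AK and 1 cSCC. The labels do not say which NS were irradiated or which tissues share a mouse, so 4 mice stand behind all 12 lesions. The sources used here name no altered allele beyond the hairless strain itself, and each library was made from bulk tissue.

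Notch receptors are cut after they bind a Jagged or Delta ligand on a neighbouring cell, and the released intracellular part enters the nucleus. There it joins the DNA-binding protein RBPJ and the co-activator MAML1 and switches on genes such as Hes1 and Hey1, which encode transcriptional repressors. In the epidermis the pathway is known for its part in the step from basal to suprabasal keratinocytes, and in vessels for its part in endothelial and mural cells.

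Promoters of the Notch genes were read from RefSeq (build GRCm38.p6), as the 250 bases before the annotated start. RefSeq gave such windows for 8 of the 10 genes, with more than one start for Dll1 and Rbpj, 10 windows in all, and none was given for Hes1 and Hey1. Notch2 and Jag2 are shown because they were called in the comparisons described later. Rbpj is shown because, of the 10 windows, only its own held the core letters bound by RBPJ, TGGGAA or TTCCCA on the other strand, which are in capitals. The Notch2 window was chr3:98013288-98013537 on the plus strand, the Jag2 window chr12:112929496-112929745 on the minus strand and the Rbpj window chr5:53590096-53590345 on the plus strand, each printed 5′ to 3′.
Notch2: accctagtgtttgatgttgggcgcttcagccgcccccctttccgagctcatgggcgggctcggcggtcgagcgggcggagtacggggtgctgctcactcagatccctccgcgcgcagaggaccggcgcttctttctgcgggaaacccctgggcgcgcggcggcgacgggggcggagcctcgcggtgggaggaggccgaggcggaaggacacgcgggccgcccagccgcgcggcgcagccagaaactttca
Jag2: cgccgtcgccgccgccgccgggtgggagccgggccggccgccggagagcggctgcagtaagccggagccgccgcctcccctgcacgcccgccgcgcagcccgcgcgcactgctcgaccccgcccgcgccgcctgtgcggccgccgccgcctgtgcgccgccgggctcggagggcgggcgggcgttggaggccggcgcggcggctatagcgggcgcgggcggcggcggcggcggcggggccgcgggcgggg
Rbpj: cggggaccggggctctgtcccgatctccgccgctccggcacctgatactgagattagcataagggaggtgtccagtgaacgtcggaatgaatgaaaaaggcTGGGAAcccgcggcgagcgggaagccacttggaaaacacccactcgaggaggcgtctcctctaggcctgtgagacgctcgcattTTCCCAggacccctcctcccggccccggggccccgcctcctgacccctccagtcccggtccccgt

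The letters began at -149 and -65 from the Rbpj start. The second Rbpj window, which overlaps this one, held the later of these matches, at -205 from its own start. Over all 32817 RefSeq promoter windows of this length, 21.6% held the letters, against 2 of the 10 windows of the Notch genes. GC content of the 10 windows ran from 56.0% to 87.2%, the latter in Jag2, and the median of all windows was 52.4%.

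Libraries held 775750 to 14055206 counts, and 3 counts, taken as the limit of detection, corresponded to 0.224 to 3.78 CPM, the usual depth-corrected count, here scaled with TMM factors. Markers of basal and suprabasal keratinocytes were present in every group of tissues labelled skin. In cSCC 18, 46.8% of counts came from haemoglobin genes, against at most 14.3% in any other library. Lung epithelium markers summed to 35640 CPM in cSCC 20, against at most 51.7 CPM in NS and AK. Heart muscle markers summed to 54740 CPM in cSCC 21, against at most 73.2 CPM in NS and AK. Calls on single Notch and pathway genes in cSCC are therefore given also without cSCC 20 and 21. In whole tissue, fewer cells of a type and less RNA per cell cannot be told apart.

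Hes1 RNA was lower in AK and in cSCC than in NS, and cSCC also held less Notch2 and more Jag2 RNA than NS. A gene was called when the adjusted p of edgeR's quasi-likelihood test was under 0.05 with a fold above 1.5 or below 0.67. Of the 10 genes, 9 had enough counts to be tested in each comparison, and Hey1 did not. In AK vs. NS, 1 of the 9 was called, Hes1, which fell, where 4.64% of the 11677 genes tested were called. No Notch gene was without overlap between AK and NS, where 0.522% of all genes were. Between cSCC and NS, 3 of the 9 were called, where 19.3% of 12097 genes were: Jag2 rose, and Notch2 and Hes1 fell. Between cSCC and AK, only Jag2 was called, higher, where 24.4% of 12032 genes were called. Without cSCC 19 all 3 calls in cSCC vs. NS were lost, and without cSCC 21 Jag2 and Hes1 lost theirs, with the values given at each gene. With counts this small, the shares of 1, 3 and 1 of 9 are not set apart from these backgrounds.

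The median log2 fold change of the 9 was -0.10 in AK vs. NS, -0.07 in cSCC vs. NS and -0.08 in cSCC vs. AK. The medians of all genes tested were -0.04, 0.14 and 0.17. Scaling by library size alone moved the last 2 medians by -0.31 and -0.26 on the log2 scale. Measured from the median of all genes, Jag2 stood at 1.18 with TMM factors and 1.10 with library size alone in cSCC vs. NS, and Notch2 at -1.69 and -1.70. On this relative scale the sign of each of the 9 was the same with both scalings in all comparisons, other than Jag1 in cSCC vs. NS, at 0.03 and -0.01.

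**Figure D1:**
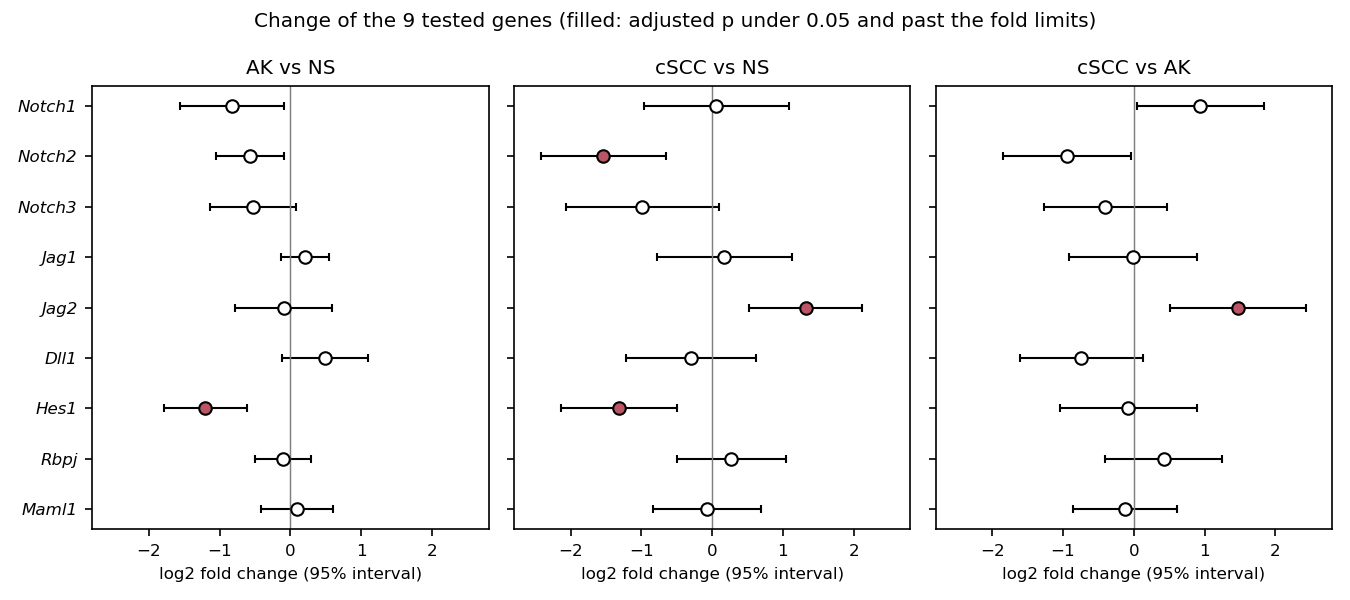
Log2 fold change (x axis, with its 95% interval) of each of the 9 tested genes in the 3 comparisons, from edgeR's quasi-likelihood fit. Filled points passed the call, and they are Hes1 in AK vs. NS, Notch2, Jag2 and Hes1 in cSCC vs. NS, and Jag2 in cSCC vs. AK.

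Levels of different genes were compared per kilobase of exon. The length was the union of all annotated exons of a gene, 14.2 kb for Notch1 and 5.53 kb for Maml1. The order could differ with another choice of length, which was not tried. In NS, Hes1 stood first at 17.4 ± 6.09 CPM per kilobase (SD, n = 8), followed by Jag1 at 13.3 ± 3.002 and Notch2 at 11.9 ± 3.65. Neighbours among these 3 differed by less than the spread of their difference over the libraries. Notch2 stood above Rbpj, at 2.597 ± 0.514, in all 8 NS. Dll1, Notch3 and Maml1 followed at 2.57, 1.72 and 1.67 CPM per kilobase, and their neighbours in the order did not differ beyond the spread. Maml1 stood above Notch1, at 0.789 ± 0.426, in 7 of 8 NS and by more than that spread. Notch1 and Jag2 did not differ beyond the spread, with Jag2 at 0.768 ± 0.208, and Hey1 was last in all 8 NS against Jag2, at 0.186 ± 0.142. Notch2 was thus the most abundant of the 3 receptors per length in NS.

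In AK the order at the top was different, with Jag1 at 15.6 ± 2.996 CPM per kilobase above Notch2 at 8.08 ± 3.44 in 7 of 8 tissues and beyond the spread. Hes1, first in NS, came after Notch2 at 7.63 ± 3.71 and was not separated from Notch2. In cSCC, Jag1 stood first at 14.6 ± 11.4 (n = 4), but above Hes1 in only 2 of 4 tissues. Hes1, at 6.94 ± 3.33, stood above Notch2, at 4.01 ± 2.35, in all 4 cSCC and beyond the spread. From Notch2 down to Notch1, last at 0.768 ± 0.344, no neighbours in cSCC differed beyond the spread.

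**Figure D2:**
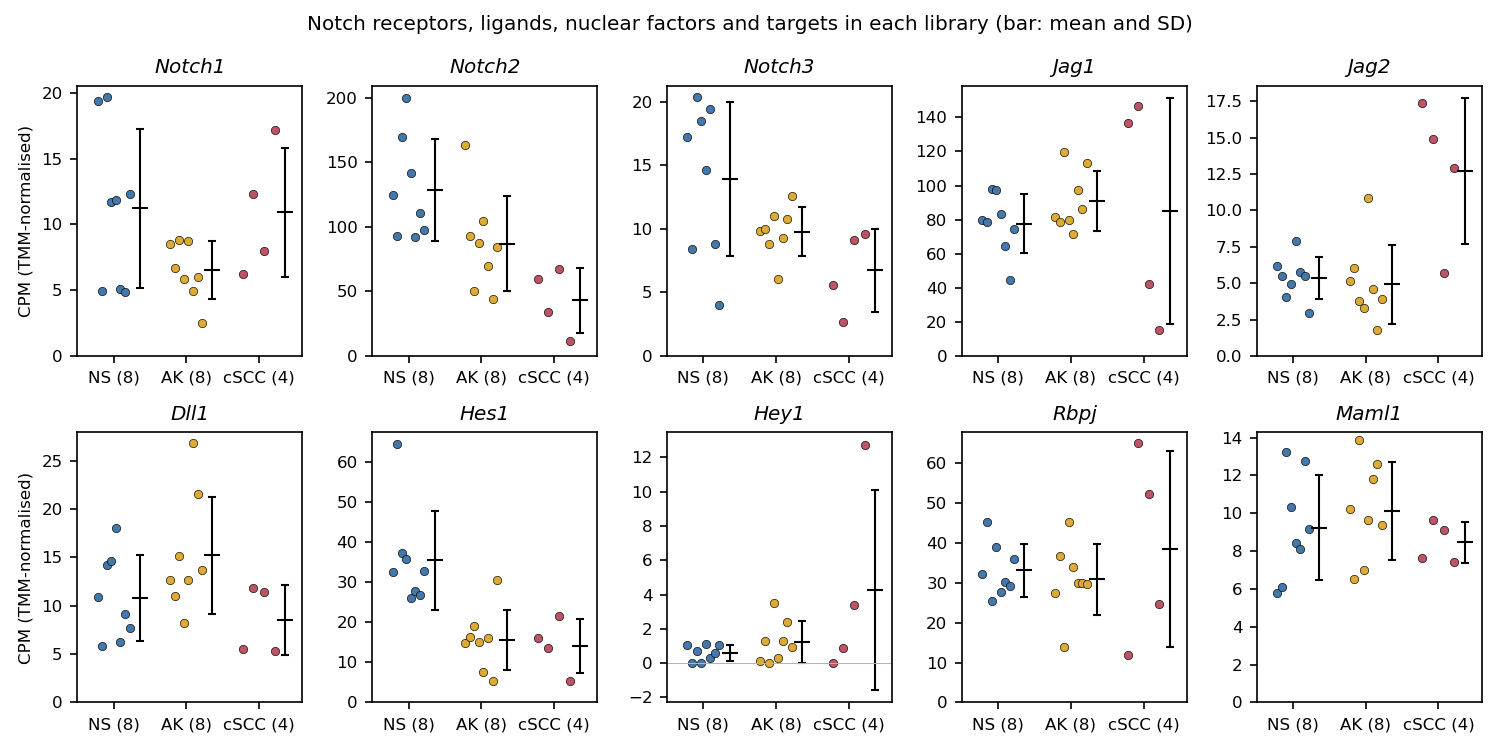
TMM-normalised CPM (y axis, a linear scale of its own in each panel) of each gene in each library of NS (n = 8), AK (n = 8) and cSCC (n = 4), with the mean and SD as a bar. All 4 cSCC lie below every NS for Notch2 and Hes1, 7 of 8 AK lie below every NS for Hes1, and 3 of 4 cSCC lie above every NS and AK for Jag2.

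Notch1 encodes the receptor best known for keratinocyte differentiation and lies at chr2:26457903-26516663 (GRCm38). Its level was 4.87 CPM in the lowest, 11.8 in the median and 19.7 in the highest NS. The same values in AK were 2.51, 6.36 and 8.83 CPM, and the 4 cSCC, 18 to 21, held 6.25, 12.3, 7.96 and 17.2 CPM. All 8 AK lay below the NS median, but only 1 lay below every NS, and cSCC spread across the range of NS. Notch1 was not called in AK vs. NS, with a log2 fold change of -0.83 ± 0.35 (SE), a 95% interval of -1.56 to -0.09 and an adjusted p of 0.157 by edgeR's test. Against AK, cSCC differed by 0.94 ± 0.42, with an interval of 0.04 to 1.84 and an adjusted p of 0.115. Against NS, cSCC differed by 0.06, with an interval of -0.97 to 1.08, and the point value turned to -0.23 without cSCC 20 and 21. The strand used in counting is not given in the sources used here, and reads of Notch1 cannot be told from those of the opposite-strand genes 0610009E02Rik and Gm13568.

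Notch2, a receptor present in many cell types, lies at chr3:98013527-98150361. Its level was 91.9 CPM in the lowest, 118 in the median and 199.8 in the highest NS, and 44.4, 86.0 and 163 CPM in AK. In cSCC 18, 19, 20 and 21 it was at 59.7, 34.3, 67.1 and 11.6 CPM. Every cSCC lay below every NS, whereas 8.43% of all genes tested in cSCC vs. NS had no overlap between the groups in either direction, and 5 of 8 AK lay below every NS. Notch2 fell in cSCC vs. NS, by 2.91-fold on the fitted scale, with a log2 fold change of -1.54 ± 0.41, an interval of -2.42 to -0.66 and an adjusted p of 0.0199 by edgeR's test. Without cSCC 20 and 21 the change was -1.435 with an adjusted p of 0.0294. Without cSCC 19, the only cSCC with neither the haemoglobin share nor the lung or heart genes, it was -1.45 with an adjusted p of 0.0532.

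In AK vs. NS the change of Notch2 was -0.57 ± 0.23, with an interval of -1.06 to -0.09 and an adjusted p of 0.136. AK 10 was the deepest library and the highest of the AK at 163 CPM. Without it the change was -0.76, with an adjusted p of 0.0361 by edgeR's test, and was called. With AK 10 kept, the limma voom test also called it, at -0.66 with an adjusted p of 0.0415. That test weights each library by its estimated quality, so AK 10 need not have counted in full. From AK to cSCC the change was -0.94 ± 0.42, with an interval of -1.85 to -0.04 and an adjusted p of 0.114. All 4 cSCC lay below the AK median, and 2 lay below every AK.

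Notch3, a receptor best known in vascular smooth muscle and pericytes, lies at chr17:32120820-32166852, where Gm17276 runs on the opposite strand. It was at 4.04 CPM in the lowest, 15.95 in the median and 20.4 in the highest NS, and at 6.03, 9.89 and 12.6 CPM in AK. In the same order, the cSCC held 5.56, 2.64, 9.10 and 9.59 CPM. All AK and all cSCC lay below the NS median, yet the groups overlapped, since 3 NS were at low values as well. Notch3 was not called in AK vs. NS (-0.52, interval -1.13 to 0.08, adjusted p = 0.271 by edgeR's test), in cSCC vs. NS (-0.99, interval -2.06 to 0.09, adjusted p = 0.183) or in cSCC vs. AK (-0.40, interval -1.27 to 0.47, adjusted p = 0.4996). Without cSCC 20 and 21 the change was -1.78 in cSCC vs. NS (adjusted p = 0.101) and -1.23 in cSCC vs. AK (adjusted p = 0.119).

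Jag1, the Jagged ligand with the higher level per length, lies at chr2:137081456-137116644. It was at 44.5 CPM in the lowest, 79.4 in the median and 98.0 in the highest NS, and at 71.5, 83.9 and 119.8 CPM in AK. The 4 cSCC were split, with 137 and 147 CPM in cSCC 18 and 19, above every NS and every AK, and 42.1 and 15.1 CPM in cSCC 20 and 21, below every NS and every AK. The group mean, 85.2 ± 66.4 CPM (SD, n = 4), therefore describes no single cSCC. Jag1 was not called in AK vs. NS (0.21, interval -0.13 to 0.55, adjusted p = 0.447), in cSCC vs. NS (0.17, interval -0.78 to 1.12, adjusted p = 0.823) or in cSCC vs. AK (-0.01, interval -0.91 to 0.89, adjusted p = 0.991) by edgeR's test. The low cSCC were the libraries with lung and heart genes. Without them the change was 0.90 with an adjusted p of 0.0470 in cSCC vs. NS, and 0.72 with an adjusted p of 0.0506 in cSCC vs. AK.

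Jag2, the other Jagged ligand, lies at chr12:112907819-112929776. It was at 2.98 CPM in the lowest, 5.49 in the median and 7.89 in the highest NS, and at 1.80, 4.26 and 10.9 CPM in AK. The levels in cSCC were 17.4, 14.9, 5.69 and 12.9 CPM. The cSCC other than cSCC 20 thus lay above every NS and every AK, while cSCC 20 lay within both, on 5 counts. Jag2 rose 2.50-fold in cSCC vs. NS, with a log2 fold change of 1.32 ± 0.37, an interval of 0.52 to 2.12 and an adjusted p of 0.0252 by edgeR's test. It rose 2.78-fold in cSCC vs. AK, with 1.47 ± 0.45, an interval of 0.52 to 2.43 and an adjusted p of 0.0280. The 2 comparisons share the cSCC tissues. In AK vs. NS the change was -0.10, with an interval of -0.78 to 0.59.

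The size of the Jag2 rise held better than its call. From NS to cSCC it was 1.15 without cSCC 18 (adjusted p = 0.0574 by edgeR's test), 1.24 without cSCC 19 (0.0686) and 1.31 without cSCC 21 (0.0501). From AK to cSCC the call was lost without AK 12, 13 or 17 and without cSCC 18, 19 or 21, with changes of 1.23 to 1.43 and adjusted p-values of 0.0504 to 0.0769. Without both cSCC 20 and 21 Jag2 was called in both, at 1.62 with an adjusted p of 0.0261 and at 1.74 with an adjusted p of 0.0399. With library size alone it was not called, at 0.94 with an adjusted p of 0.135 in cSCC vs. NS.

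Dll1, a Delta-like ligand, lies at chr17:15367354-15376872, with A930024N18Rik on the opposite strand. It was at 5.79 CPM in the lowest, 10.02 in the median and 18.03 in the highest NS, and at 8.18, 13.2 and 26.8 CPM in AK. The cSCC were at 5.56, 11.9, 11.4 and 5.29 CPM. Although 7 of 8 AK lay above the NS median and all 4 cSCC below the AK median, the groups overlapped. Dll1 was not called in AK vs. NS (0.49, interval -0.12 to 1.09, adjusted p = 0.307), in cSCC vs. NS (-0.30, interval -1.22 to 0.62, adjusted p = 0.664) or in cSCC vs. AK (-0.74, interval -1.61 to 0.13, adjusted p = 0.196) by edgeR's test.

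Rbpj encodes the DNA-binding protein through which all Notch receptors act, and lies at chr5:53466152-53657362. It was at 25.4 CPM in the lowest, 31.3 in the median and 45.2 in the highest NS, and at 13.9, 29.9 and 45.4 CPM in AK. The 4 cSCC held 11.8, 65.0, 52.3 and 24.6 CPM, so that cSCC 19 and 20 lay above and cSCC 18 and 21 below every NS. No call was made, with changes of -0.10 (interval -0.49 to 0.29) in AK vs. NS, 0.27 (-0.50 to 1.04) in cSCC vs. NS and 0.42 (-0.40 to 1.24) in cSCC vs. AK. The antisense genes Gm10441 and Gm40304 overlap Rbpj, and Gm26542 overlaps Maml1, which lies at chr11:50255634-50292311.

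Maml1, the co-activator of the complex, varied less over the 4 cSCC than any other of the 10 genes. It was at 5.81 CPM in the lowest, 8.80 in the median and 13.2 in the highest NS, at 6.50, 9.95 and 13.9 CPM in AK, and at 7.64, 9.67, 9.10 and 7.44 CPM in the 4 cSCC. All cSCC lay inside the range of both other groups. Its changes were 0.09 (interval -0.41 to 0.60) in AK vs. NS, -0.07 (-0.83 to 0.69) in cSCC vs. NS and -0.12 (-0.85 to 0.61) in cSCC vs. AK. With intervals of this width a change of 1.5-fold in either direction is still inside each of the cSCC comparisons.

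Hes1, the target that encodes a repressor of differentiation genes, lies at chr16:30064384-30067796. It was at 25.9 CPM in the lowest, 32.7 in the median and 64.3 in the highest NS, and at 5.39, 15.5 and 30.4 CPM in AK. The levels in cSCC 18 to 21 were 15.98, 13.6, 21.6 and 5.29 CPM. In AK, 7 of 8 tissues lay below every NS and AK 17 was within them, while all 4 cSCC lay below every NS. Hes1 fell 2.30-fold in AK vs. NS, with a log2 fold change of -1.20 ± 0.28, an interval of -1.79 to -0.62 and an adjusted p of 0.0249 by edgeR's test. It fell 2.49-fold in cSCC vs. NS, with -1.32 ± 0.38, an interval of -2.14 to -0.50 and an adjusted p of 0.0282. These 2 comparisons share the NS tissues. From AK to cSCC the change was -0.08, with an interval of -1.04 to 0.89.

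The call on Hes1 in AK vs. NS was lost without NS 4 (adjusted p = 0.0512 by edgeR's test) and without AK 13 (0.0519), with changes of -1.19 in both. For cSCC vs. NS it was lost without cSCC 19, at -1.32 and an adjusted p of 0.0614, without cSCC 21, at -1.02 and 0.0583, and without both cSCC 20 and 21, at -1.24 and 0.0545. In AK vs. NS the Hes1 call was also lost with all 20 samples in 1 fit, at -1.19 (adjusted p = 0.0912 by edgeR's test). In cSCC vs. NS it was also lost with limma voom, at -1.15 (adjusted p = 0.0942 by that test). The direction was the same in all of these fits.

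Hey1, the other target, known in vessels among other tissues, lies at chr3:8663359-8667256 and was near the limit of detection. Its counts summed to 19 in the 8 NS, 40 in the 8 AK and 82 in the 4 cSCC, and 77 of the 82 came from cSCC 21. The level was 0 in the lowest, 0.644 in the median and 1.13 CPM in the highest NS, and 0, 1.10 and 3.51 CPM in AK. The cSCC held 0, 0.879, 3.41 and 12.7 CPM, on 0, 2, 3 and 77 counts. Counts under 3 were seen in 6 NS, 3 AK and 2 cSCC, so that no difference between the groups could be read from Hey1 alone.

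Ratios of 2 genes within a library do not depend on the scaling, and 4 of them were compared between the groups by two-sided exact permutation of the tissues, with 12 tests in all and p-values adjusted over the 12. They are log2 ratios of counts, with 1 count added to each, and are not corrected for gene length. The ratio of Notch2 to Notch1 averaged 3.63 ± 0.657 (SD) over the NS, 3.65 ± 0.808 over the AK and 1.73 ± 1.70 over the cSCC. Single cSCC were at 3.12, 1.45, 2.91 and -0.56, and only cSCC 19 and 21 lay below every NS and AK. The mean of cSCC differed from that of NS by -1.90 and from that of AK by -1.93, each with an exact p of 0.0141 and an adjusted p of 0.0286. Between AK and NS the difference was 0.02 (exact p = 0.952). Without cSCC 21 the differences were -1.14 and -1.16, with adjusted p-values of 0.121 and 0.135, and without cSCC 19 they were -1.81 and -1.83, with 0.0849 for both by exact permutation.

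The ratio of Jag2 to Jag1 averaged -3.80 ± 0.575 over the NS, -4.21 ± 0.777 over the AK and -2.27 ± 1.39 over the cSCC. Single cSCC were at -2.93, -3.26, -2.66 and -0.22, of which 3 lay above every NS. The ratio was higher in cSCC than in NS by 1.53 (exact p = 0.00404, adjusted p = 0.0242) and than in AK by 1.95 (exact p = 0.00606, adjusted p = 0.0242). Without cSCC 21, where Jag1 was lowest, the differences were 0.85 and 1.26, with an adjusted p of 0.121 for both by exact permutation. Notch3 to Notch1 differed between cSCC and AK by -1.34 (exact p = 0.0202, adjusted p = 0.0346), with -0.90 without cSCC 19 (exact test, adjusted p = 0.197). That call was also lost without AK 11, 13, 15 or 16 or cSCC 21.

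The ratio of Hey1 to Hes1 was -5.56 ± 1.35 for NS, -3.56 ± 1.55 in AK and -2.27 ± 2.52 in cSCC. AK stood above NS by 2.00 (exact p = 0.0143, adjusted p = 0.0286), with 5 of 8 AK above every NS. It was higher in cSCC than in NS by 3.29 (exact p = 0.00404, adjusted p = 0.0242), with 3 of 4 cSCC above every NS. Hey1 had 0 to 15 counts in NS and AK, so the added count weighs on this ratio. Where Hey1 is at 0, the ratio follows only the Hes1 count, and so also the depth. It was -7.80 in NS 2 and -4.0 in AK 12, both at 0 Hey1 counts, in libraries of 3123719 and 867219 counts. The first call was lost without NS 2 or 5 or AK 13 or 16 (1.64 to 1.78, adjusted p 0.0514 to 0.0597 by exact permutation). The second was lost without cSCC 21, at 2.12 with an adjusted p of 0.121 by exact permutation. With 3 cSCC against 8, and still more with 2, these tests have few splits, and with 4 against 8 the smallest p they can give is 0.00202.

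**Figure D3:**
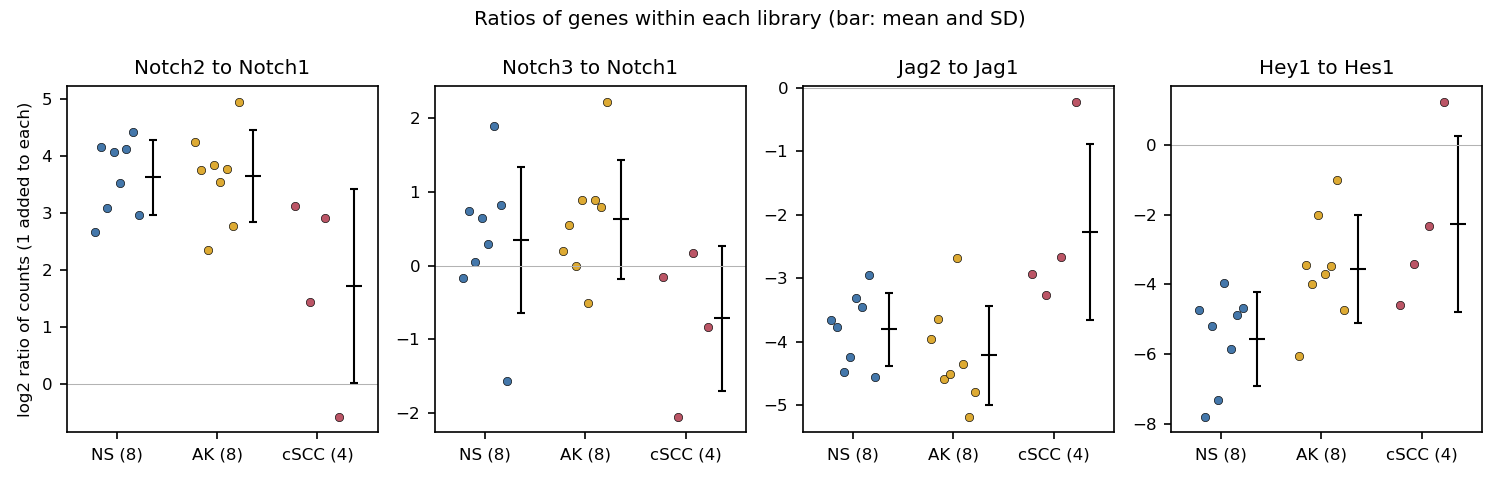
Log2 ratio of counts (y axis, 1 added to each count) of 4 pairs of genes within each library, with the mean and SD of each group as a bar. cSCC 21 is the lowest point for Notch2 to Notch1, at -0.56, and the highest for Jag2 to Jag1 and Hey1 to Hes1, at -0.22 and 1.24.

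Other genes of the pathway were followed as a list of 59, ordered by role. In AK vs. NS, 40 of them were tested and 3 were called, or 7.50%, against 4.64% of all genes, and their median log2 fold change was -0.05. Adam10, the protease that makes the first cut of a ligand-bound receptor, rose 1.51-fold, with 176.9, 225.9 and 298 CPM as the lowest, median and highest NS and 267, 337 and 476 CPM in AK (adjusted p = 0.0288 by edgeR's test). Of the co-repressors, which hold RBPJ targets silent or act with HES proteins, Tle4 rose 1.65-fold (adjusted p = 0.0388). Each of these calls was lost in several of the 16 fits without 1 library, since Adam10 kept it in 10 and Tle4 in 8. Both were lost without NS 1, NS 2, NS 4, AK 12 or AK 13, with Adam10 then at 0.52 to 0.59 on the log2 scale (adjusted p 0.0517 to 0.0638). With library size alone neither rise was called, with Adam10 at 0.50 (adjusted p = 0.0324, under the fold limit) and Tle4 at 0.62 (adjusted p = 0.0522), and the calls of the list were 0 higher and 2 lower, against 2 higher and 1 lower. Among lists without a call, the sugar-transfer genes Poglut1 and Pofut1, which modify the receptors, changed by -0.12 (interval -0.49 to 0.26) and -0.39 (-0.83 to 0.05).

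Between cSCC and NS, 43 genes of the list were tested and 8 were called, or 18.6%, against 19.3% of all genes, with a median of -0.30. Ncstn, a subunit of the gamma-secretase that makes the second cut, rose 2.58-fold (adjusted p = 0.0157 by edgeR's test). Hes6, a relative of Hes1 that is known to counter it, rose 5.38-fold (adjusted p = 0.0131), from a median of 5.81 CPM in NS to 1.39, 72.1, 17.1 and 23.5 CPM in the 4 cSCC. Dtx3, of the Deltex family, rose 8.77-fold (adjusted p = 0.0184), with 0, 3.08, 11.4 and 44.5 CPM in the 4 cSCC. The histone acetyltransferase gene Kat2a and the co-repressor gene Ctbp2 rose as well, 2.48-fold (adjusted p = 0.0336) and 2.74-fold (adjusted p = 0.0196). Neurl1b, which helps take up ligands, fell 2.90-fold (adjusted p = 0.0211), Itch, a ubiquitin ligase acting on the receptors, 1.65-fold (adjusted p = 0.0479), and Tle3, a co-repressor gene, 2.07-fold (adjusted p = 0.0460).

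With library size alone the calls were 2 higher and 3 lower, against 5 higher and 3 lower. Without cSCC 21 only Ctbp2 and Hes6 of the 8 were still called, with Ncstn at 0.72 (adjusted p = 0.107 by edgeR's test), Dtx3 at 1.37 (adjusted p = 0.329) and Kat2a at 0.71 (adjusted p = 0.250) on the log2 scale. The other lost calls kept more of their size, with Neurl1b at -1.36 (adjusted p = 0.0567), Itch at -0.68 (adjusted p = 0.0892) and Tle3 at -0.88 (adjusted p = 0.112). Without cSCC 19 Hes6 was at 1.42, with an adjusted p of 0.114. Itch kept its call in only 2 of the 12 fits without 1 library, Tle3 in 3 and Kat2a in 5. The counts of called genes ran from 2 to 10 over these fits.

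The rise of Dtx3 was not seen without both cSCC 20 and 21, where its change from NS was -0.09 (adjusted p = 0.969 by edgeR's test) and from AK 0.33 (adjusted p = 0.885). Against NS, only Hes6 at 2.78 (adjusted p = 0.0238) and Tle3 at -1.31 (adjusted p = 0.0403) of the 8 were then called. Ncstn was at 0.55 (adjusted p = 0.275), Kat2a at 0.94 (0.153), Ctbp2 at 1.46 (0.0527), Neurl1b at -1.10 (0.138) and Itch at -0.60 (0.192).

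Between cSCC and AK, 41 genes of the list were tested and 10 were called, or 24.4%, the same as the share of all genes, with a median of -0.07. Furin, the protease that matures the receptors, rose 3.11-fold (adjusted p = 0.00716 by edgeR's test), with 13.9, 68.6, 37.6 and 39.5 CPM in the 4 cSCC and a median of 13.6 CPM in AK. The gamma-secretase genes Ncstn and Aph1a rose 2.91-fold and 2.48-fold (adjusted p = 0.0156 and 0.0423). Dtx3, Hes6 and the co-repressor gene Ctbp1 rose 12.1-fold, 7.95-fold and 2.16-fold (adjusted p = 0.0113, 0.00906 and 0.0149). Itch fell 1.92-fold (adjusted p = 0.00559), from 80.2, 99.2 and 117 CPM as the lowest, median and highest AK to 45.2, 60.2, 42.1 and 43.0 CPM in the 4 cSCC. Mib1, a ligase acting on ligands, fell 1.87-fold (adjusted p = 0.0295). The groups did not overlap for 4 of the 41 genes, where 10.2% of all genes tested did not overlap. These were Itch, Mib1, Tle4 and Adam17, the last of which was not called. Neurl1b and Tle4 fell 2.69-fold and 2.88-fold (adjusted p = 0.0464 and 0.0335).

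With library size alone the calls were 4 higher and 4 lower, against 6 higher and 4 lower. Furin and Itch kept their call in all 12 fits without 1 library in cSCC vs. AK. Ncstn, Aph1a and Dtx3 lost it without cSCC 21, at 0.77, 0.45 and 1.69 on the log2 scale (adjusted p = 0.166, 0.527 and 0.260 by edgeR's test), Hes6 without cSCC 19, at 2.02 (0.0617), and Ctbp1 without cSCC 20, at 0.79 (0.0577). Mib1 kept its call in 9 of the 12 fits, Tle4 in 7, Aph1a in 4 and Neurl1b in 3. Without both cSCC 20 and 21, Furin at 1.66, Itch at -0.84 and Hes6 at 3.32 were called (adjusted p = 0.0267, 0.0287 and 0.0167). Ncstn at 0.67, Aph1a at 0.29, Ctbp1 at 0.57, Mib1 at -0.45, Neurl1b at -1.03 and Tle4 at -1.69 were not (adjusted p 0.0549 to 0.742).

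Dll4 and Heyl, too low to be tested, were picked out after their values were seen. Dll4, an endothelial Notch ligand, had 3 counts in all 8 NS and 8 in all 8 AK, and 4, 3, 9 and 110 counts in the 4 cSCC. These libraries differ in depth. In CPM, Dll4 was at 1.32 in the lowest, 6.51 in the median and 18.2 in the highest cSCC, cSCC 21. It reached at most 0.352 CPM in NS and 1.81 CPM in AK. Heyl, a target known in vessel walls, had 166 of its 169 cSCC counts in cSCC 21, the library with heart genes.

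**Figure D4:**
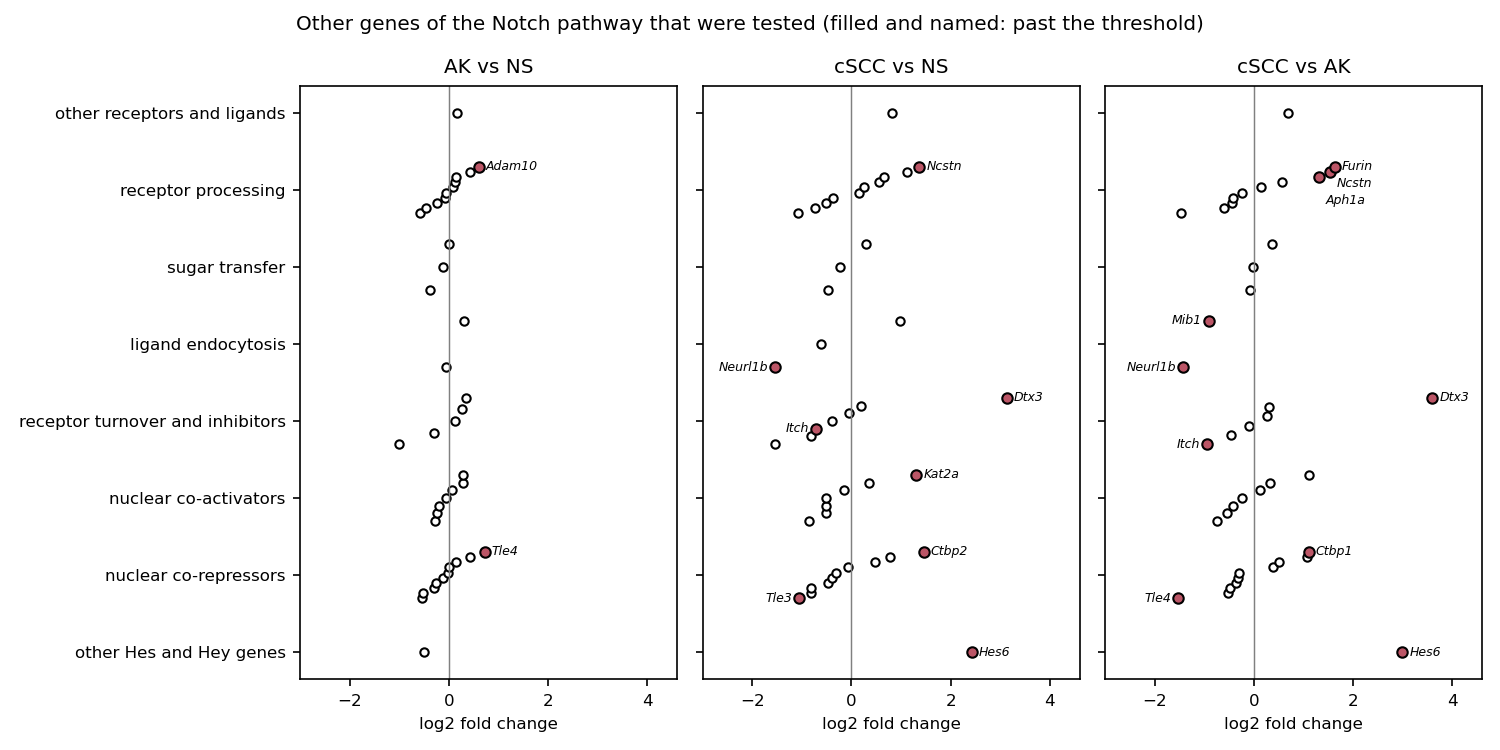
Log2 fold change (x axis) of tested genes of the 59-gene pathway list in the 3 comparisons, in rows by role, with 1 gene of the list not drawn. Filled points with names passed the call, 2 in AK vs. NS, 8 in cSCC vs. NS and 10 in cSCC vs. AK.

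Markers of several cell types were also called in the comparisons with cSCC. Of 10 endothelial markers, 9 were called higher in cSCC vs. NS, where 11.7% of all genes tested were. All 10 were called higher in cSCC vs. AK, where 1931 of the 12032 genes tested were. Their summed level was 36.6 to 125 CPM in NS, 39.0 to 111 in AK and 133 to 861 in cSCC. It was highest in cSCC 21, which also held most of the Hey1 counts. Of 7 suprabasal keratinocyte markers, 6 were called lower in cSCC vs. NS, where 7.65% of all genes tested were. Of these markers, 1 was called lower in AK vs. NS, where 2.38% of all genes were. Their sum was 11340 to 33360 CPM in NS, 7460 to 23110 in AK and 849 to 10880 in cSCC. No basal keratinocyte or fibroblast marker was called in either comparison with NS. No marker of these 4 lists was at 0 in a whole group. Between cSCC and NS all 5 red cell, 4 of 4 heart muscle, 2 of 2 lung epithelium and 1 of 7 macrophage markers tested were called higher. Called lower were 3 of 6 skeletal muscle and 1 of 5 T cell markers. The shares of all genes were 11.7% and 7.65%. Heart muscle markers summed to 54740 CPM in cSCC 21 but to 68.8 to 149 CPM in the other cSCC. Lung epithelium markers summed to 35640 CPM in cSCC 20 but to 3.955 to 8.34 CPM in the other cSCC. No mural, stress keratin or hair follicle and sebaceous marker was called in cSCC vs. NS. Krt35 and Mc5r of the last list were at 0 in all cSCC. The part of cell composition in the levels of Notch2, Jag2, Hes1 and Hey1 was not tested. With the haemoglobin genes left out, chosen after cSCC 18 was seen, the counts of called Notch genes were again 1, 3 and 1.

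Across tissues the 10 genes did not move as a block. After each group's mean was subtracted, Pearson's r of log2(CPM + 1) over the 20 tissues had a median of -0.01 over the 45 pairs of genes. The highest was 0.57, between Dll1 and Maml1, and the lowest -0.73, between Jag1 and Hey1, which was -0.16 without cSCC 20 and 21. These values are a description, since the points share library depth and composition, and with library size alone the median was 0.19. The genes nearest to each receptor were sought over all 20 tissues, and not again without cSCC 20 and 21. Of 12414 genes, those nearest to Notch2 were Ahnak, Pou2f3 and Pim1, with r of 0.90, 0.89 and 0.88. Those nearest to Notch1 were Lmbr1l, Tmem35 and Utrn (0.80, 0.78 and 0.76), and those nearest to Notch3 were Pcnx, Supt7l and Prpf8 (0.76, 0.75 and 0.74).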

How the data were processed

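RNA-seq of 8 NS, 8 AK and 4 cSCC was used, grouped by the labels. The authors deposited raw counts per gene symbol, not normalized. The paper gives Trimmomatic, HISAT2 to GRCm38 and StringTie. The submitters' processing notes list Trimmomatic 0.36, HISAT2 2.0.5, featureCounts 1.5.2 and the builds mm9 and hg19. The counts carry no coordinates, so this conflict could not be settled here, and genes were matched by symbol to GENCODE M21 on GRCm38 for position and length. The strand used in counting is not given in the sources used here. Of the 22090 genes, 18160 had a count. No 2 libraries of a group were alike beyond sampling noise (62 pairs, smallest chi-square per degree of freedom 11.3). The limit of 3 counts and the depth cover counting error only.

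Each pair of groups was fitted on all genes in edgeR 4.0.16 (R 4.3.3) with TMM factors, filterByExpr and the quasi-likelihood test, and p-values were adjusted by Benjamini-Hochberg over all genes tested. Calls combined an adjusted p threshold of 0.05 with the study's fold limits of 1.5 and 0.67. The script was tested on simulated counts in which some genes had a log2 fold change of 2. Of these, 93.2% were called in AK vs. NS, 40.6% in cSCC vs. NS and 49.2% in cSCC vs. AK. In the simulation of cSCC vs. NS, 192 of the 12561 genes tested were changed, so these shares need not hold for the data. A gene not called in a cSCC comparison may still have changed. In cSCC vs. NS the intervals of Notch1, Jag1, Dll1, Rbpj and Maml1 left out a log2 change of 2 in either direction. That of Notch3 reached -2.06. In cSCC vs. AK the intervals of all tested Notch genes without a call left it out. The p-values treat tissues as independent, although 4 irradiated mice gave all AK, all cSCC and 4 of the NS. Alternatives were DESeq2 1.42.0, limma 3.58.1 voom, other scalings and filters, 1 fit of all 20 samples, and each library left out. The voom fit weighted each library by its estimated quality. Promoter sequences are from RefSeq.

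Named were all 10 genes, the pathway genes that passed the call (1 gene of the list is counted but not reported here), for lists without a call up to 2 genes of highest level, and the 3 genes nearest to each receptor. Dll4 and Heyl were added after their values were seen. The genes and lists were chosen with earlier results of these data known. Marker lists of 13 cell types were also counted.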

Additional observations from a re-analysis of the deposited data

Results flagged for a closer look

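Among the 30 sets of 1 gene in 1 group, 2 held a library whose gap to its nearest neighbour was large for the range of the group, and chance alone marks about 1 in 20 sets in this way. Hes1 in NS 2 was at 64.3 CPM, with the next NS at 37.3 CPM and the median at 32.7 CPM, so that the gap took 0.703 of the range against a critical value of 0.526. Jag2 in AK 14 was at 10.9 CPM, with the next AK at 6.07 CPM and the median at 4.26 CPM, a gap of 0.528 of the range. Leaving out either library changed no call on Hes1 or Jag2.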

How the results depend on the processing

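No paired analysis was possible because the groups share no replicate numbers. Over the 27 log2 fold changes of the tested Notch genes, 606 alternative values were computed, of which 551 were on the same side with the same direction, 23 lost the call, 4 gained it and 28 changed sign. The cause of these changes was not tested.

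Calls on the Notch genes, which numbered 1 in AK and 3 in cSCC against NS and 1 in cSCC against AK, ran over the fits without 1 library from 0 to 2, 0 to 3 and 0 to 1. DESeq2 gave 1, 3 and 1. In AK vs. NS they were 2 with limma voom and 0 with all 20 samples in 1 fit. Asking for 10 counts in every sample left 5 Notch genes to test in AK vs. NS and 3 in cSCC vs. AK, without Hes1 and Jag2 respectively, so the gene called elsewhere was not tested and the calls were 0. Between cSCC and NS limma voom gave 1. Between cSCC and AK they were 0 with library size alone, limma voom or no gene filter, and 2 with all 20 samples in 1 fit. Pathway calls, 3, 8 and 10, ran from 0 to 4, 2 to 10 and 6 to 11 without 1 library. They were 1 in AK vs. NS and 5 in cSCC vs. AK with 10 counts in every sample, and 0 in AK vs. NS with all 20 samples in 1 fit. Against NS, cSCC had 5 with library size alone and 1 with limma voom, and in cSCC vs. AK 6 with limma voom and 6 without cSCC 20 and 21.

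Among the Notch genes, signs turned only in changes that were not called, while the called rise of Dtx3, of the pathway list, in cSCC vs. NS turned to -0.09 without cSCC 20 and 21. Jag1 in cSCC vs. AK was 0.054 with 10 counts in every sample, 0.0065 with DESeq2, 0.0072 with limma voom, 0.016 with upper quartile factors and 0.72 without cSCC 20 and 21. Jag1 in cSCC vs. NS was -0.18 with library size alone. Notch1 in cSCC vs. NS was -0.25 with library size alone, -0.024 with all 20 samples and -0.23 without cSCC 20 and 21. Maml1 was -0.0034 in AK vs. NS with 10 counts in every sample, and 0.083 in cSCC vs. NS and 0.067 in cSCC vs. AK with limma voom. Hes1 in cSCC vs. AK was 0.025 with limma voom. Without 1 library, Jag2 in AK vs. NS ran from -0.36 to 0.012. Between cSCC and NS, Notch1 ran from -0.28 to 0.24, Maml1 from -0.15 to 0.023, Jag1 from -0.24 to 0.53 and Rbpj from -0.12 to 0.53. Between cSCC and AK, Jag1 ran from -0.43 to 0.28 and Hes1 from -0.35 to 0.15.

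The log2 ratios lost their calls when medians were compared by exact permutation. Notch2 to Notch1 was then -1.62 in cSCC vs. NS, -1.58 in cSCC vs. AK and -0.039 in AK vs. NS, Notch3 to Notch1 -1.16 in cSCC vs. AK, Jag2 to Jag1 0.92 in cSCC vs. NS and 1.64 in cSCC vs. AK, and Hey1 to Hes1 1.46 in AK vs. NS and 2.18 in cSCC vs. NS. Without cSCC 20 and 21, which leaves too few splits for a call, Notch2 to Notch1 was -1.35 against NS and -1.37 against AK, Notch3 to Notch1 -1.73 against AK, Jag2 to Jag1 0.71 and 1.12, and Hey1 to Hes1 1.56 and -0.44. Without 1 library, Notch2 to Notch1 ran from -0.16 to 0.21 in AK vs. NS, -2.37 to -1.14 in cSCC vs. NS and -2.39 to -1.16 in cSCC vs. AK. Notch3 to Notch1 ran from -1.35 to -0.61 in cSCC vs. NS and -1.64 to -0.90 in cSCC vs. AK. It passed the call in cSCC vs. NS without NS 9, at -1.33 (exact permutation, adjusted p = 0.0303). Jag2 to Jag1 ran from 0.85 to 1.87 and 1.26 to 2.28, and Hey1 to Hes1 from 1.64 to 2.36 in AK vs. NS and 2.12 to 4.06 in cSCC vs. NS.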
